A study of Mus musculus with 23 samples.

Results

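The matrix metalloproteinases (MMPs), the ADAMTS proteases and the tissue inhibitors of metalloproteinases (TIMPs) were examined as 1 gene group in syngeneic mouse tumors and in the fibroblasts sorted from them. Genes were taken by symbol, which gave 23 MMP, 19 ADAMTS and 4 TIMP genes, 46 of the 24940 gene symbols measured. Where a symbol had several transcripts, the transcript with the largest mean was kept in each table. No expression difference was used to choose the genes.

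RNA was sequenced from whole tumors of 5 models, with 3 tumors per model: B16 (melanoma), EO771 (breast carcinoma), LL2 (lung carcinoma), MC38 (colon carcinoma) and Pan02 (pancreatic ductal carcinoma). The 3 Pan02 tumors carry Pan02 as the cell line in their labels, while their titles read Pan01. Each cell line was injected under the skin of the right flank or both flanks of untreated adult female C57BL/6 mice. All groups thus shared the host strain and site and differed in the injected line. Each model was 1 cell line, and the whole-tumor RNA came from a fragment holding tumor cells, immune cells and stroma. Cancer-associated fibroblasts (CAFs) of EO771, LL2, MC38 and Pan02 tumors had been depleted of CD45+ leukocytes and sorted for fibroblast activation protein (FAP), with 2 libraries per model from separate rounds of sorting, and B16 CAFs are not analysed here. The CAF libraries are numbered 1 and 2 by their order in the table, which pairs no CAF library with a tumor.

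MMPs are zinc-dependent endopeptidases that together cleave most components of the extracellular matrix and are released or displayed as inactive proenzymes. ADAMTS proteases are secreted relatives that trim procollagens or cleave large proteoglycans such as versican and aggrecan. TIMPs bind the active sites of MMPs and, in the case of Timp3, also those of several ADAMTS proteases, so that the balance of both groups bears on matrix turnover. In tumors, stromal fibroblasts and macrophages are well-known sources of these transcripts beside the tumor cells.

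Tumor libraries held 10035173 to 21946486 counts and CAF libraries 6223438.5 to 19537410.5 recovered reads. Tumor levels are given as CPM (counts scaled to library totals adjusted by TMM factors), CAF levels as RPKM (reads scaled to transcript length and library total), and TPM (transcript shares, which correct for length) are given where genes or tables are set side by side. The labels were checked against markers before the comparisons. Summed over 9 fibroblast markers, EO771 CAFs reached 21773 to 24599.7 TPM and LL2 CAFs 18209 to 23166 TPM, above their tumors at 1641 to 3665 and 2520.4 to 6339 TPM. The 2 MC38 CAF libraries stood apart at 15801 and 4643 TPM, against 1379 to 6230.4 TPM in MC38 tumors, and the lower was also the shallowest library of the series. Pan02 CAFs went against their label, with 6949 to 11379 TPM against 17291 to 20959 TPM in whole Pan02 tumors.

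Fap itself overlapped between Pan02 CAFs (5.51 to 9.62 TPM) and Pan02 tumors (4.86 to 12.3 TPM), while it was above the tumors in the CAFs of the other 3 models. Keratins and other epithelial markers summed to 2586 to 3410.04 TPM in Pan02 CAFs and 3288 to 5149.95 TPM in Pan02 tumors. The same sums were 1214 to 1249 against 1586 to 1680.5 TPM in EO771 and 548 to 569.7 against 687 to 1046 TPM in LL2. Leukocyte and macrophage markers were far below the tumors in every CAF group, with macrophage sums of 287 to 343 TPM in EO771 CAFs and at most 54.5 TPM in the other 3. These sorted populations are therefore called CAFs by their label, and the part of tumor cell RNA in their values was not tested. In bulk RNA, fewer cells of a type and less RNA per cell cannot be told apart.

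Of the 23 MMP genes, 10 lie in a cluster of 427 kb on chromosome 9 (mm10, chr9:7272514-7699585), in the order Mmp13, Mmp12, Mmp1b, Mmp3, Mmp1a, Mmp10, Mmp8, Mmp27, Mmp20 and Mmp7. RefSeq promoter windows (GRCm38.p6, 250 bases before to 50 after the start site) were at hand for 32 of the 46 genes. The AP-1 motif TGAGTCA, which reads TGACTCA on the other strand, was found in 7 of the 10 cluster genes (Mmp1a, Mmp1b, Mmp3, Mmp7, Mmp10, Mmp12 and Mmp13) and in 0 of the 22 other genes with a window. All 7 also held the TATA motif TATAAA, which reads TTTATA on the other strand and does not overlap the AP-1 motif. Mmp7 and Mmp12 each also had another window with neither motif. Among all 32851 windows of the same length, searched on both strands, 5.20% held the AP-1 motif, 13.6% the TATA motif and 0.941% both. Counted by gene, 5.95% held the AP-1 motif and 15.7% the TATA motif. The 4 cluster genes with the highest levels are printed from 130 bases before to 20 after the start site, in the direction of the gene (plus strand for all 4) with the matches in capitals, because their levels set models and CAFs apart in the comparisons that follow. They are Mmp13 at chr9:7272384-7272533, Mmp12 at chr9:7347244-7347393, Mmp3 at chr9:7445692-7445841 and Mmp10 at chr9:7502212-7502361.
Mmp13: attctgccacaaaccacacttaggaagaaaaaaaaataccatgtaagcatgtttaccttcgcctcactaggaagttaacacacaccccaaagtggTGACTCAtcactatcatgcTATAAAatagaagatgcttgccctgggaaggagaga
Mmp12: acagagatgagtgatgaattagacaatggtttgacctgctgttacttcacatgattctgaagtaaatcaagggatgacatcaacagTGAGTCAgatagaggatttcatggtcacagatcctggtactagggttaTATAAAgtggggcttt
Mmp3: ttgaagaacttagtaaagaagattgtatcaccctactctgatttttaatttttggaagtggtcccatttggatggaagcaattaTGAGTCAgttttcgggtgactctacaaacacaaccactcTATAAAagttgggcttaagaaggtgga
Mmp10: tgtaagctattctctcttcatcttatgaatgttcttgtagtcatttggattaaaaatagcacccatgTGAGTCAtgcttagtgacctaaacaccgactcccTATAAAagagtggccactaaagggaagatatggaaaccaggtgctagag
The AP-1 match began 35 bases before the start site in Mmp13, 44 in Mmp12, 46 in Mmp3 and 63 in Mmp10, so the printed genes differ in its distance, and Mmp13 carries it on the opposite strand. The TATA match began 29 bases before the start site in Mmp10, 16 in Mmp13 and 7 in Mmp3, and 4 bases after it in Mmp12. A match describes these letters and shows no binding.

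To see how the models differ, each tumor model was compared with the mean of the other 4 in 1 edgeR fit over 15722 genes. A call required an adjusted p under 0.05 and a change of 2-fold or more, up or down. Of the 46 genes, 38 passed the filter on low counts, and 35 of these 38 (92.1%) differed among the models, against 91.1% of all genes tested. The family did not stand apart in how often it differed, and its direction by model was uneven. Pan02 tumors had 24 of 38 genes called higher (63.2%, against 18.8% of all genes) and 2 lower (5.26%, against 7.93%). B16 tumors had 22 called lower (57.9%, against 19.6%) and 2 higher (5.26%, against 13.1%). The median log2 fold change of the 38 genes was 1.68 in Pan02 and -2.15 in B16, beside 0.05 and -0.03 over all genes.

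In the other 3 models no share called higher or lower exceeded 23.7%. EO771 tumors had 9 genes called higher (23.7%, against 9.71%) and 3 lower (7.89%, against 13.7%). LL2 tumors had 8 higher (21.1%, against 8.51%) and 9 lower (23.7%, against 8.29%). MC38 tumors had 6 higher (15.8%, against 11.2%) and 7 lower (18.4%, against 8.24%), and with scaling by total counts alone the split was 7 higher and 4 lower. Fibroblast markers moved with the same models, from 189 to 735 TPM in B16 to 17291 to 20959 TPM in Pan02, and their part in these counts was not tested. A gene that passed the filter through 1 model alone had to differ among models, so these counts describe the genes tested and not all 46.

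**Figure D1:**
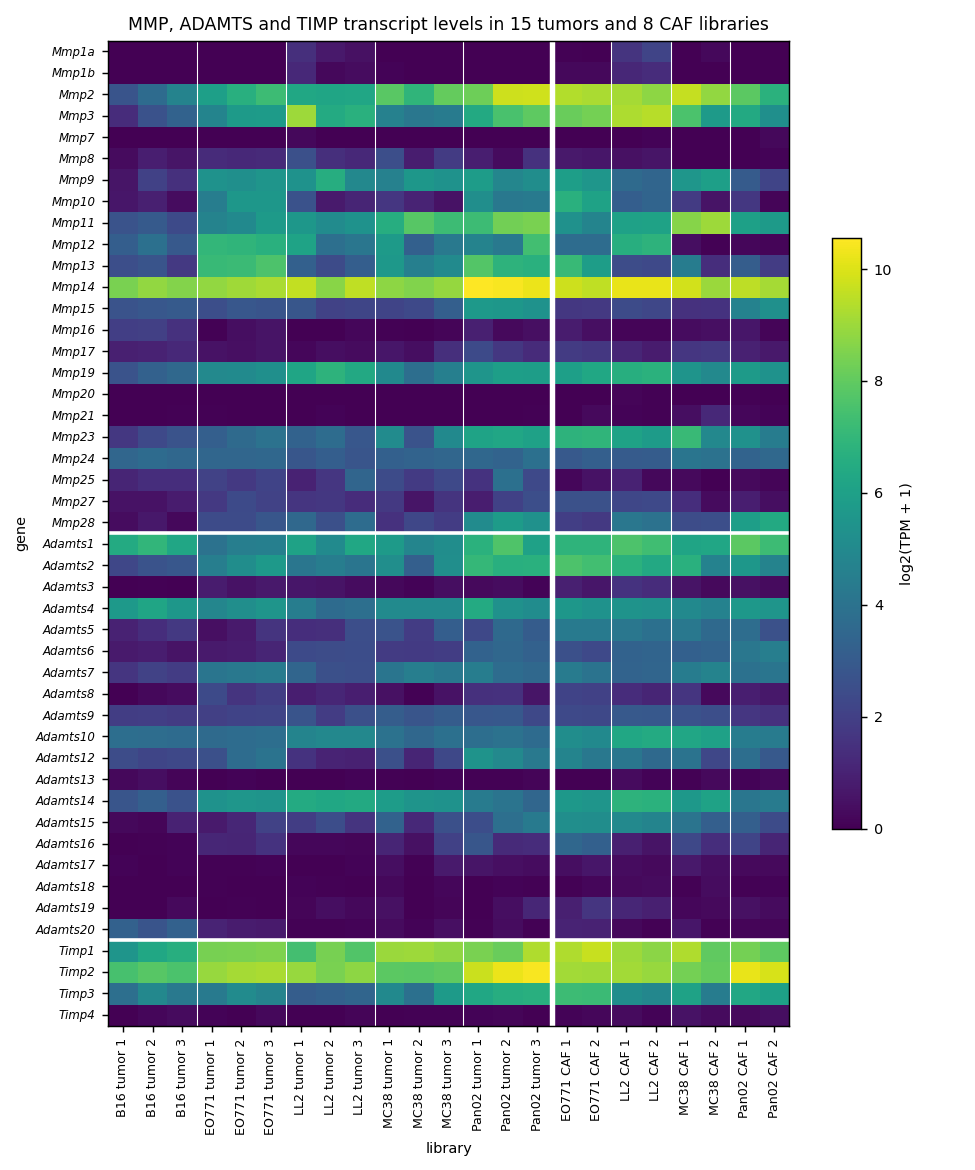
Heat map of the level of each MMP, ADAMTS and TIMP gene, as log2(TPM + 1) by color, with 1 row per gene and 1 column per library, in 15 tumors and 8 CAF libraries. Mmp14 and Timp2 were high in all libraries, whereas Mmp7 and Mmp20 were at or near 0 in all of them.

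**Figure D2:**
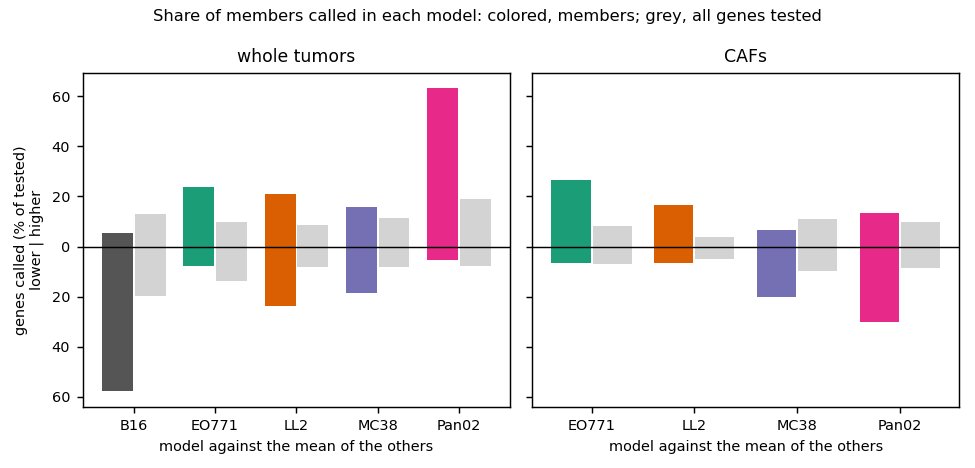
Percent of the tested genes of the group called higher (above the line) or lower (below it) in each model, beside the percent of all genes tested in grey, for tumors (38 genes) and CAFs (30 genes). In Pan02 the tumor bar points up (63.2%), while the larger CAF bar points down (30%).

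The membrane-bound collagenase Mmp14, which also activates the Mmp2 proenzyme at the cell surface, was the most abundant MMP in every tumor model. Its levels were 2440.1, 2334 and 2165 CPM in Pan02 tumors against 539.97 to 1249 CPM in the other 12 tumors (log2 fold change 1.55 ± 0.14 (SE), edgeR adjusted p = 8.0e-07). All 3 Pan02 tumors lay above every other tumor, and the other models were not called. The gelatinase Mmp2 reached 389, 1139 and 1280.1 CPM in Pan02 (log2 fold change 3.36 ± 0.34 (SE), edgeR adjusted p = 2.4e-06) and 282, 156 and 332 CPM in MC38, with 80.6 to 194 CPM in EO771 and LL2. In B16 it was 7.22, 16.3 and 34.5 CPM, below every tumor of the other models (log2 fold change -3.61 ± 0.52 (SE), edgeR adjusted p = 4.2e-05). The MC38 call for Mmp2 (1.03) was lost in 8 of the 15 fits that left out 1 library (B16 tumor 1, B16 tumor 2, EO771 tumor 1, EO771 tumor 2, LL2 tumor 1, MC38 tumor 1, MC38 tumor 3 and Pan02 tumor 1), at values of 0.76 to 1.02.

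Mmp9, the gelatinase made by neutrophils and macrophages among others, was at 0.687, 4.38 and 2.47 CPM in B16 and 30.4 to 138 CPM elsewhere (log2 fold change -4.46 ± 0.53 (SE), edgeR adjusted p = 7.1e-06). All B16 tumors lay below all others. Among the other membrane-type enzymes, Mmp15 stood at 92.8, 87.3 and 81.7 CPM in Pan02 and 5.87 to 14.2 CPM in the remaining tumors (log2 fold change 3.17 ± 0.19 (SE), edgeR adjusted p = 1.7e-08). Mmp17, which is held to the membrane by a lipid anchor, was at 7.96, 4.38 and 3.15 CPM in Pan02 and 0.272 to 3.11 CPM elsewhere (log2 fold change 2.28 ± 0.36 (SE), edgeR adjusted p = 9.8e-05). Mmp16 had the opposite pattern, with 5.5, 6.0 and 3.64 CPM in B16 and 0 to 1.73 CPM in the others (log2 fold change 4.19 ± 0.51 (SE), edgeR adjusted p = 9.2e-06). Mmp24 stayed within 11.1 to 27.99 CPM and was called in no model.

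Of the secreted MMPs outside the cluster, Mmp28 (epilysin) had the largest Pan02 change, at 50.03, 82.8 and 66.6 CPM against 2.55 to 19.3 CPM in EO771, LL2 and MC38 (log2 fold change 4.08 ± 0.25 (SE), edgeR adjusted p = 2.3e-08). In B16 it was 0.393, 0.901 and 0.274 CPM (log2 fold change -4.57 ± 0.44 (SE), edgeR adjusted p = 9.0e-07), and no tumor of B16 or Pan02 overlapped the other models. Mmp11, a stromelysin that is activated inside the cell and is known from tumor stroma, was at 146, 316 and 373 CPM in Pan02 (log2 fold change 3.09 ± 0.26 (SE), edgeR adjusted p = 4.0e-07) and 85.6, 219 and 139 CPM in MC38 (log2 fold change 1.95 ± 0.27 (SE), edgeR adjusted p = 5.0e-05). Those 2 models overlapped each other, and both lay above EO771 and LL2 at 24.8 to 50.8 CPM and B16 at 4.11 to 7.02 CPM. Mmp19 was highest in LL2, at 104, 179 and 122 CPM against 7.71 to 91.7 CPM elsewhere (log2 fold change 1.95 ± 0.21 (SE), edgeR adjusted p = 8.4e-06). Mmp23 was at 42.2, 45.96 and 44.04 CPM in Pan02 and 1.33 to 18.52 CPM in the others (log2 fold change 2.86 ± 0.33 (SE), edgeR adjusted p = 6.9e-06).

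In the chromosome 9 cluster, Mmp13 and Mmp10 were both highest in EO771 and Pan02 tumors. Mmp13, the main interstitial collagenase of the mouse, was at 157, 162 and 220.1 CPM in EO771 (log2 fold change 3.02 ± 0.23 (SE), edgeR adjusted p = 2.2e-07) and 238, 131 and 131 CPM in Pan02 (log2 fold change 2.89 ± 0.23 (SE), edgeR adjusted p = 2.7e-07). These 2 models overlapped and lay above MC38 at 25.3 to 51.8 CPM, and LL2 and B16 together held 2.72 to 9.44 CPM. The stromelysin Mmp10 was at 16.1, 34.7 and 34.1 CPM in EO771 (log2 fold change 3.91 ± 0.41 (SE), edgeR adjusted p = 4.1e-06) and 26.7, 13.1 and 15.7 CPM in Pan02 (log2 fold change 3.15 ± 0.42 (SE), edgeR adjusted p = 2.4e-05), against 0.199 to 3.87 CPM in the other 9 tumors. In LL2 tumors Mmp13 fell by 2.59 on the log2 scale, and Mmp10 was not called (log2 fold change -1.11 ± 0.56 (SE), edgeR adjusted p = 0.13), but was lower without LL2 tumor 1 (-2.38).

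The related stromelysin Mmp3 did not follow them. It was at 392, 71.1 and 81.2 CPM in LL2 (log2 fold change 2.95 ± 0.43 (SE), edgeR adjusted p = 1.1e-04), where the first tumor lay far above the other 2, and at 64.9, 144 and 204 CPM in Pan02 (log2 fold change 2.45 ± 0.44 (SE), edgeR adjusted p = 3.0e-04). EO771 tumors held 20.2 to 41.2 CPM, MC38 12.9 to 17.1 CPM and B16 1.13 to 6.98 CPM. Mmp12, the macrophage metalloelastase, was at 203, 185 and 158 CPM in EO771 tumors (log2 fold change 2.07 ± 0.59 (SE), edgeR adjusted p = 0.009). In Pan02 it was 39.6, 29.1 and 282 CPM (log2 fold change 1.27 ± 0.61 (SE), edgeR adjusted p = 0.086), not called, and without the third Pan02 tumor its log2 fold change was -0.48. That tumor also had the highest macrophage marker sum, 8418 TPM, whose part in the value was not tested. The B16 call for Mmp12 (-2.44, levels 10.7 to 22.2 CPM) was lost without B16 tumor 1 (value -2.3, edgeR adjusted p = 0.064) and B16 tumor 3 (value -2.24, edgeR adjusted p = 0.068).

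The other cluster genes were low. Mmp8, the neutrophil collagenase, ranged over 0.245 to 5.09 CPM and Mmp27 over 0.393 to 4.8 CPM. Mmp1a and Mmp1b, the mouse counterparts of human interstitial collagenase, appeared in LL2 tumors at 1.43, 0.599 and 0.344 and 1.12, 0.156 and 0.25 CPM, and Mmp1a was at 0 in every other tumor. Mmp1b shares 10.8% of its exon bases with Mmp12, so a few of its reads may be uncertain. Mmp7 and the enamel protease Mmp20 reached at most 0.0679 and 0.0249 CPM in any tumor. Outside the cluster, Mmp21 reached at most 0.0521 CPM and Mmp25 ranged over 1.53 to 22.3 CPM.

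Among the ADAMTS genes, the procollagen N-proteinases Adamts2 and Adamts14 went opposite ways in Pan02. Adamts2 was at 403, 314 and 358 CPM there, above the 11.1 to 158 CPM of all other tumors (log2 fold change 2.74 ± 0.29 (SE), edgeR adjusted p = 3.3e-06), and lowest in B16 (-2.84, at 11.1 to 19.7 CPM, overlapping none). Adamts14 was at 188, 185 and 191 CPM in LL2 (log2 fold change 2.01 ± 0.14 (SE), edgeR adjusted p = 1.1e-07), 85.2 to 115 CPM in EO771 and MC38, and 25.02 to 44.04 CPM in Pan02. It was lowest in B16, at 12.7, 18.9 and 12.04 CPM (log2 fold change -2.6 ± 0.19 (SE), edgeR adjusted p = 4.7e-08). The Pan02 call for Adamts14 (-1.03) was lost without B16 tumor 2 (value -0.98, edgeR adjusted p = 8.7e-05) and Pan02 tumor 3 (value -0.84, edgeR adjusted p = 6.9e-04). The third N-proteinase, Adamts3, did not exceed 2.41 CPM.

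Adamts20, known in mice from a coat-color mutant in which pigment cells fail to survive, was the gene with the largest rise in B16. It was at 25.2, 17.5 and 26.5 CPM in the 3 B16 melanomas and 0.0977 to 3.31 CPM in the other 12 tumors (log2 fold change 5.36 ± 0.33 (SE), edgeR adjusted p = 1.2e-08). Melanocyte markers summed to 19269 to 23657 TPM in B16 and at most 27.4 TPM in any other model, and their part in the Adamts20 value was not tested. Adamts12, which cleaves a cartilage matrix protein, was at 155, 114 and 73.5 CPM in Pan02 (log2 fold change 3.07 ± 0.32 (SE), edgeR adjusted p = 2.6e-06) and 6.96, 4.33 and 3.72 CPM in LL2 (log2 fold change -2.57 ± 0.45 (SE), edgeR adjusted p = 5.1e-04). Pan02 lay above all other tumors, while LL2 overlapped MC38, which ranged over 4.07 to 17.2 CPM.

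The proteoglycan-cleaving proteases differed by member. Adamts1 was lowest in EO771, at 31.3, 45.2 and 45.8 CPM (log2 fold change -1.88 ± 0.35 (SE), edgeR adjusted p = 4.6e-04), with 55.98 to 424 CPM in the other models. The Pan02 call for Adamts1 (1.49) was lost without Pan02 tumor 2 (value 0.98, edgeR adjusted p = 0.0085). Adamts4 was lowest in LL2, at 55.7, 34.9 and 37.1 CPM against 76.4 to 232 CPM elsewhere (log2 fold change -1.45 ± 0.26 (SE), edgeR adjusted p = 5.6e-04). Adamts5 fell in EO771 (log2 fold change -1.93 ± 0.57 (SE), edgeR adjusted p = 0.011; 1.27 to 6.71 CPM, overlapping B16 and LL2), a call lost without EO771 tumor 1 (value -1.5, edgeR adjusted p = 0.064) and EO771 tumor 2 (value -1.73, edgeR adjusted p = 0.058). Adamts15 was highest in Pan02, at 11.6, 34.3 and 52.6 CPM (log2 fold change 2.79 ± 0.55 (SE), edgeR adjusted p = 6.0e-04), although it overlapped MC38 and LL2. Adamts9 stayed within 6.78 to 18.3 CPM and was called in no model.

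The fibrillin-binding relatives Adamts6 and Adamts10 peaked in different models. Adamts6 was at 26.8, 31.5 and 28.6 CPM in Pan02 (log2 fold change 2.61 ± 0.14 (SE), edgeR adjusted p = 6.7e-09) and 1.4 to 3.31 CPM in B16 and EO771. Adamts10 was at 47.7, 59.1 and 56.5 CPM in LL2 and 19.6 to 27.9 CPM elsewhere, with no overlap (log2 fold change 1.2 ± 0.09 (SE), edgeR adjusted p = 3.1e-07). Adamts7 was lowest in B16, at 4.76, 7.71 and 6.28 CPM (log2 fold change -2.31 ± 0.27 (SE), edgeR adjusted p = 5.3e-06). The less abundant Adamts16 was at 13.5, 3.07 and 3.78 CPM in Pan02 (log2 fold change 3.16 ± 0.5 (SE), edgeR adjusted p = 9.9e-05), where the first tumor set the upper end, and Adamts17 ranged over 0.0621 to 1.74 CPM. Its MC38 call (1.86) was lost without MC38 tumor 3 (value 0.82, edgeR adjusted p = 0.27). Adamts8 ranged over 0 to 8.42 CPM and Adamts19 over 0 to 2.82 CPM, while Adamts13, which processes von Willebrand factor, and Adamts18 reached at most 0.621 and 0.361 CPM.

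The other calls among the more abundant genes were mostly in B16. Lower there were Mmp11 (log2 fold change -4.01 ± 0.41 (SE), edgeR adjusted p = 1.6e-06), Mmp3 (-3.78), Mmp10 (-3.66), Mmp13 (-3.51), Adamts15 (-3.19), Mmp19 (-2.34), Mmp23 (-2.3) and Adamts6 (-2.28), all log2 fold changes with edgeR adjusted p-values under 0.05. In LL2 tumors Mmp28 (1.34) and Adamts6 (1.27) were higher, and in Pan02 Adamts5 (1.81). Mmp10 was lower in MC38 (log2 fold change -2.29 ± 0.6 (SE), edgeR adjusted p = 0.006), and Adamts7 was higher in EO771 (1.11), where Adamts6 was lower (-1.78).

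Some further tumor calls were lost when 1 library was left out. The call of higher Mmp9 in LL2 (1.64) was lost without LL2 tumor 2 (value 0.94, edgeR adjusted p = 0.05), and that of lower Mmp15 in LL2 (-1.13) was lost without LL2 tumor 2 (value -0.99, edgeR adjusted p = 0.018). Higher Mmp9 in Pan02 (1.03) was lost in 5 of the 15 fits that left out 1 library (B16 tumor 1, LL2 tumor 1, LL2 tumor 3, MC38 tumor 1 and Pan02 tumor 1), at values of 0.76 to 1.00. Higher Mmp19 in Pan02 (1.02) was lost in 6 of the 15 fits that left out 1 library (B16 tumor 1, LL2 tumor 1, LL2 tumor 3, MC38 tumor 2, Pan02 tumor 2 and Pan02 tumor 3), at values of 0.92 to 1.00. Lower Mmp3 in MC38 (-1.55) was lost in 4 of the 15 fits that left out 1 library (B16 tumor 3, MC38 tumor 1, MC38 tumor 2 and MC38 tumor 3), at values of -1.66 to -1.4. Higher Adamts7 in MC38 (1.09) was lost without MC38 tumor 2 (value 0.92, edgeR adjusted p = 0.0087). Adamts12 was called higher in EO771 (1.14), which was lost without EO771 tumor 2 (value 1.05, edgeR adjusted p = 0.06) and EO771 tumor 3 (value 0.81, edgeR adjusted p = 0.12), and lower in MC38 (-1.05), which was lost in 9 of the 15 fits that left out 1 library (B16 tumor 1, B16 tumor 2, B16 tumor 3, EO771 tumor 2, EO771 tumor 3, LL2 tumor 1, MC38 tumor 2, MC38 tumor 3 and Pan02 tumor 2), at values of -1.2 to -0.63.

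Genes with little RNA gave some of the larger fold changes. Adamts20 fell in LL2 (log2 fold change -3.32 ± 0.58 (SE), edgeR adjusted p = 4.8e-04) and Pan02 (log2 fold change -2.2 ± 0.53 (SE), edgeR adjusted p = 0.0028), where it was under 1 CPM in all 6 tumors. Mmp16 was called lower in LL2 (-3.1), which was lost without LL2 tumor 1 (value -2.62, edgeR adjusted p = 0.056) and LL2 tumor 2 (value -2.47, edgeR adjusted p = 0.073), and in MC38 (-2.59), which was lost in 3 of the 15 fits that left out 1 library (LL2 tumor 3, MC38 tumor 1 and MC38 tumor 2), at values of -2.49 to -1.7. Adamts3 was lower in B16 (-4.33) and higher in EO771 (2.3) and LL2 (1.76), at no more than 2.41 CPM. Adamts8 was higher in EO771 (2.56) and Mmp17 lower in LL2 (-2.01).

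The inhibitors followed the proteases in part. Timp2, which inhibits MMPs and also takes part in Mmp2 activation by Mmp14, was at 1312, 1907 and 2372 CPM in Pan02 (log2 fold change 1.9 ± 0.13 (SE), edgeR adjusted p = 5.6e-08), above all other tumors. It was lowest in B16, at 269.98, 361 and 297 CPM (log2 fold change -1.34 ± 0.16 (SE), edgeR adjusted p = 6.8e-06), with MC38 close by at 343, 350.2 and 373 CPM (log2 fold change -1.09 ± 0.16 (SE), edgeR adjusted p = 6.7e-05). Timp3, the inhibitor that binds to the matrix, was at 154, 192 and 221 CPM in Pan02 (log2 fold change 2.26 ± 0.27 (SE), edgeR adjusted p = 1.0e-05) and 14.98, 18.9 and 20.4 CPM in LL2 (log2 fold change -1.97 ± 0.36 (SE), edgeR adjusted p = 6.5e-04). Neither model overlapped the others, although 21.3% of its exon bases are shared with Syn3 and the libraries carried no strand.

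Timp1, a secreted inhibitor that acts weakly on membrane-type MMPs, was at 16.1, 30.2 and 37.7 CPM in B16, below every other tumor (log2 fold change -2.28 ± 0.33 (SE), edgeR adjusted p = 4.2e-05). In Pan02 it was 128, 108 and 262 CPM (log2 fold change 0.92 ± 0.26 (SE), edgeR adjusted p = 0.0079), which misses the minimum change. The MC38 call (1.01) was lost in 6 of the 15 fits that left out 1 library (B16 tumor 1, LL2 tumor 1, LL2 tumor 3, MC38 tumor 2, Pan02 tumor 1 and Pan02 tumor 2), at values of 0.92 to 0.98. Timp4 reached at most 0.299 CPM and was not tested.

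**Figure D3:**
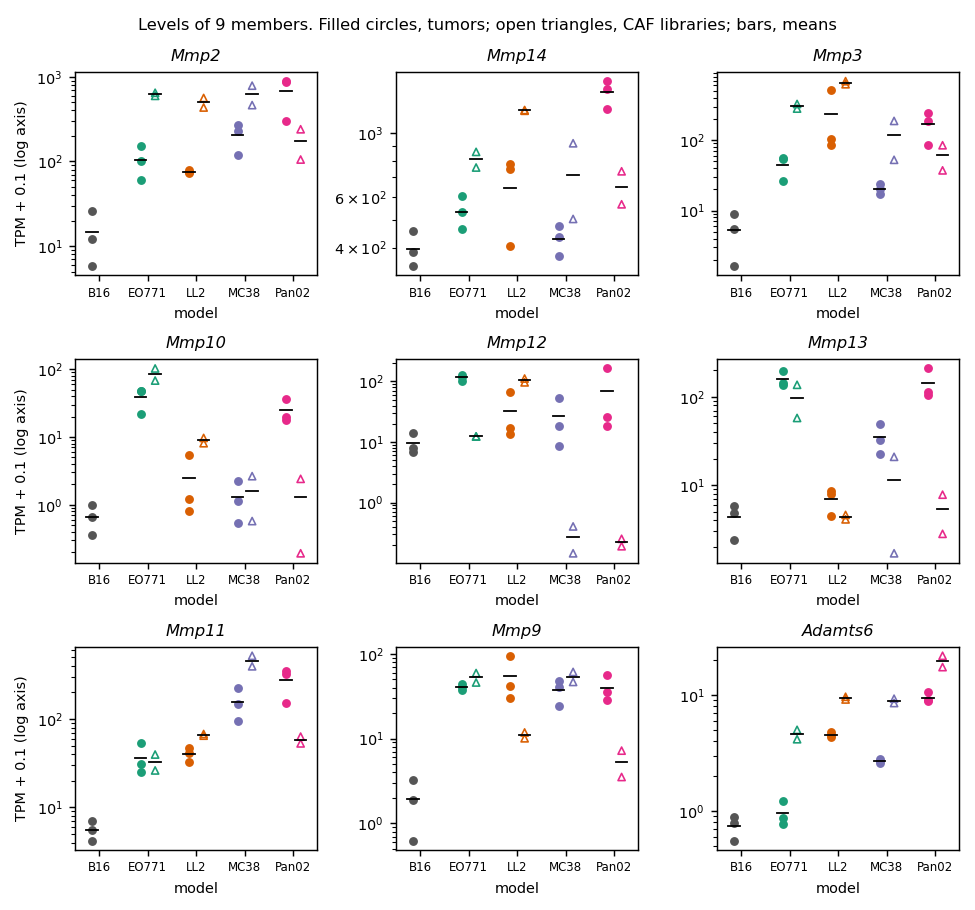
Levels of 9 genes of the group in each library by model, in TPM on a log axis, with filled circles for tumors, open triangles for CAF libraries and bars for means. The CAF libraries lie below the tumors for several genes in Pan02. In EO771 and LL2 they lie above the tumors for Mmp2, Mmp3, Mmp10 and Adamts6, but below them for Mmp12 in EO771 and Mmp9 in LL2.

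Sorted CAFs of 4 models were then compared, each with the mean of the other 3, by limma on log2(RPKM + 1) of 13598 genes. Of the 46 genes, 30 passed the minimum of 1 RPKM in at least 2 libraries, and 25 of the 30 (83.3%) differed among models, against 80.4% of all genes. EO771 CAFs had 8 called higher (26.7%, against 8.05%) and 2 lower (6.67%, against 7.06%). LL2 CAFs had 5 higher (16.7%, against 3.89%) and 2 lower (6.67%, against 5.13%). In MC38 CAFs 2 were higher (6.67%, against 10.9%) and 6 lower (20%, against 9.87%). Pan02 CAFs had 4 higher (13.3%, against 9.73%) and 9 lower (30%, against 8.41%). Of the 30 genes, 5 were lower in Pan02 CAFs and higher in Pan02 tumors against the tumors of the same 3 models (Adamts2, Adamts15, Mmp2, Mmp3 and Mmp10). Another 4 were higher in both (Adamts6, Mmp15, Mmp28 and Timp2) and Adamts14 was lower in both. The share of all genes with these joint patterns was not counted, so they describe the named genes only. With 2 libraries a model, 1 library could move these counts: the 7 calls of LL2 became 4 without LL2 CAF library 1 and 2 without LL2 CAF library 2, and the 8 calls of MC38 became 17 without MC38 CAF library 1. The share of all genes called with 1 library left out was not counted. By edgeR on the read numbers recovered from the RPKM, 40 of the 46 genes were tested. In either direction, 19 were called in EO771 (background 23.8%), 13 in LL2 (background 13.7%), 10 in MC38 (background 29.4%) and 17 in Pan02 (background 25.7%). As in the tumors, a gene that passed a filter through 1 model alone had to differ among models.

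EO771 CAFs were marked by the cluster genes Mmp10 and Mmp13. Mmp10 was at 40.4 and 27.9 RPKM against 0.032 to 3.69 RPKM in the other 6 libraries (log2 difference 4.06 ± 0.29 (SE), limma adjusted p = 7.0e-05). Mmp13 was at 54.1 and 23.8 RPKM, also without overlap, against 0.527 to 8.65 RPKM (log2 difference 3.64 ± 0.65 (SE), limma adjusted p = 0.0032). Both genes were also high in EO771 tumors, with log2 fold changes of 3.19 and 2.29 against the tumors of the same 3 models. Adamts15 was at 14.2 and 14.3 RPKM (log2 difference 1.42 ± 0.27 (SE), limma adjusted p = 0.0043) and Mmp9 at 23.4 and 18.9 RPKM (log2 difference 1.75 ± 0.18 (SE), limma adjusted p = 3.0e-04). Lower there were Mmp28 at 1.15 and 0.963 RPKM (log2 difference -1.92 ± 0.15 (SE), limma adjusted p = 1.1e-04) and Mmp11 at 15.6 and 10.8 RPKM (log2 difference -1.67 ± 0.15 (SE), limma adjusted p = 1.7e-04).

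The inhibitor Timp3 was at 58.9 and 60.9 RPKM in EO771 CAFs and 6.74 to 27.8 RPKM in the others (log2 difference 1.86 ± 0.42 (SE), limma adjusted p = 0.0083). This rise was lost without EO771 CAF library 1 (value 1.88, limma adjusted p = 0.059) and EO771 CAF library 2 (value 1.83, limma adjusted p = 0.064). Adamts2 was at 77.2 and 67.1 RPKM and 8.03 to 42.9 RPKM (log2 difference 1.8 ± 0.52 (SE), limma adjusted p = 0.023), a call lost in 3 of the 8 fits that left out 1 library (EO771 CAF library 1, EO771 CAF library 2 and LL2 CAF library 2), at values of 1.7 to 1.9. For Timp1 the libraries overlapped, at 249 and 334 RPKM in EO771 against 83.03 to 264 RPKM (log2 difference 1.1 ± 0.39 (SE), limma adjusted p = 0.047), and the call was lost in 7 of the 8 fits that left out 1 library (EO771 CAF library 1, EO771 CAF library 2, LL2 CAF library 1, LL2 CAF library 2, MC38 CAF library 2, Pan02 CAF library 1 and Pan02 CAF library 2), at values of 0.82 to 1.31. The smaller gene Adamts16 was at 4.16 and 3.51 RPKM (log2 difference 1.56 ± 0.24 (SE), limma adjusted p = 0.0017).

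LL2 CAFs were marked by Mmp12. It stood at 34.4 and 42.96 RPKM against 4.87 and 5.03 RPKM in EO771 CAFs and 0.015 to 0.126 RPKM in MC38 and Pan02 CAFs (log2 difference 4.39 ± 0.12 (SE), limma adjusted p = 2.0e-05). By edgeR on the recovered reads, without the 1 RPKM added, the log2 fold change was 7.21 ± 0.17 (SE) in LL2, -4.56 ± 0.45 in MC38 and -5.9 ± 0.43 in Pan02 CAFs. That fit also called Mmp12 higher in EO771 CAFs (log2 fold change 3.25 ± 0.2 (SE), edgeR adjusted p = 3.8e-05), where limma did not (log2 difference 0.75). Mmp12 reached 96.5 to 112 TPM in LL2 CAFs and 13.4 to 68.1 TPM in LL2 tumors. Macrophage markers summed to 16.98 to 18.2 TPM in LL2 CAFs, the lowest among the CAFs, and 1967 to 3979 TPM in LL2 tumors. Epithelial markers summed to 548 to 569.7 TPM in LL2 CAFs. The part of macrophage or tumor cell RNA in the Mmp12 value was not tested. Mmp3 was at 221 and 264 RPKM in LL2 CAFs and 12.7 to 134 RPKM in the others (log2 difference 2.42 ± 0.52 (SE), limma adjusted p = 0.012), a call lost without LL2 CAF library 1 (value 2.54, limma adjusted p = 0.082) and LL2 CAF library 2 (value 2.29, limma adjusted p = 0.11). Adamts14 was at 40.1 and 41.2 RPKM (log2 difference 1.5 ± 0.11 (SE), limma adjusted p = 1.0e-04) and, as in the tumors (1.45), above all other models. Adamts10 at 27.3 and 33.9 RPKM (log2 difference 1.11 ± 0.16 (SE), limma adjusted p = 0.0019) overlapped MC38 CAFs, and its call was lost without LL2 CAF library 2 (value 0.96, limma adjusted p = 0.039).

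The remaining LL2 calls were lost when 1 library was left out. Mmp19 was at 35.1 and 40.4 RPKM, against 10.1 to 32.1 RPKM (log2 difference 1.01 ± 0.22 (SE), limma adjusted p = 0.012), and its call was lost in 5 of the 8 fits that left out 1 library (EO771 CAF library 1, LL2 CAF library 1, LL2 CAF library 2, MC38 CAF library 2 and Pan02 CAF library 2), at values of 0.88 to 1.11. Mmp9 at 4.17 and 3.85 RPKM (log2 difference -1.1 ± 0.18 (SE), limma adjusted p = 0.0036) was called lower, which was lost without LL2 CAF library 2 (value -1.06, limma adjusted p = 0.054) and Pan02 CAF library 1 (value -0.99, limma adjusted p = 0.0025). The call of lower Adamts16, at 0.326 and 0.177 RPKM (log2 difference -1.04 ± 0.24 (SE), limma adjusted p = 0.016), was lost in 4 of the 8 fits that left out 1 library (LL2 CAF library 1, LL2 CAF library 2, MC38 CAF library 1 and Pan02 CAF library 1), at values of -1.12 to -0.91. LL2 CAFs also held the only Mmp1a levels above 0.1 RPKM, 0.725 and 1.34 RPKM, and Mmp1b at 0.456 and 0.584 RPKM, and these were under the minimum for limma. By edgeR on the recovered reads both were higher in LL2 CAFs (edgeR adjusted p = 0.0012 and 0.0022).

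MC38 CAFs were marked by Mmp11. Its levels were 163 and 171 RPKM against 10.8 to 25.99 RPKM in the other 6 libraries (log2 difference 3.11 ± 0.15 (SE), limma adjusted p = 1.5e-05), although the 2 MC38 libraries differed in fibroblast markers. In MC38 tumors Mmp11 was 1.01 ± 0.29, adjusted p = 0.011 (log2 fold change, edgeR) against the other 3 models with CAFs, which was lost in 5 of the 15 fits that left out 1 library (EO771 tumor 1, EO771 tumor 2, LL2 tumor 2, MC38 tumor 2 and Pan02 tumor 1), at values of 0.61 to 0.97. Mmp9 was at 19.3 and 20.1 RPKM (log2 difference 1.63 ± 0.18 (SE), limma adjusted p = 2.6e-04), within the range of EO771 CAFs. The genes called lower were Mmp12 at 0.126 and 0.015 RPKM (log2 difference -2.55 ± 0.12 (SE), limma adjusted p = 1.5e-05), Mmp10 at 1.05 and 0.157 RPKM (log2 difference -1.92 ± 0.29 (SE), limma adjusted p = 0.001), Mmp28 (-1.38), Mmp15 (-1.17), Timp2 (-1.16) and Adamts1 (-1.08). Timp2, at 137 and 88.9 RPKM, and Adamts1, at 29.2 and 25.1 RPKM, lay below all other CAFs. The call for Timp2 was lost without MC38 CAF library 2 (value -0.85, limma adjusted p = 0.0017), and that for Adamts1 was lost without MC38 CAF library 2 (value -0.98, limma adjusted p = 0.0073) and Pan02 CAF library 1 (value -0.98, limma adjusted p = 8.8e-04).

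Many genes of the group differed widely between the 2 MC38 libraries, for example Mmp13 at 8.65 and 0.527 RPKM, Mmp2 at 325 and 152 RPKM and Timp1 at 264 and 83.04 RPKM. The library with the lower fibroblast sum had the lower value in these 3 genes, and the part of this in the MC38 values was not tested.

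Pan02 CAFs combined high Mmp28, Mmp15 and Timp2 with low Mmp2, Mmp3, Mmp9, Mmp10 and Mmp12. Mmp28 was at 20.02 and 29.1 RPKM against 0.963 to 6.04 RPKM in the other CAFs (log2 difference 2.9 ± 0.15 (SE), limma adjusted p = 9.6e-06), and Mmp15 at 8.46 and 13.2 RPKM against 0.639 to 1.56 RPKM (log2 difference 2.52 ± 0.16 (SE), limma adjusted p = 2.2e-05). Timp2 was at 404 and 335 RPKM against 88.9 to 219 RPKM (log2 difference 1.15 ± 0.18 (SE), limma adjusted p = 0.0015). These genes did not overlap the other models, and they were high in Pan02 tumors too, at 3.13, 3.26 and 1.67 against the same 3 models. Adamts6 at 5.91 and 7.47 RPKM (log2 difference 1.02 ± 0.13 (SE), limma adjusted p = 5.7e-04) was also above all other CAFs, but its call was lost in 4 of the 8 fits that left out 1 library (EO771 CAF library 2, LL2 CAF library 1, MC38 CAF library 2 and Pan02 CAF library 2), at values of 0.88 to 1.00.

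Among the genes called lower in Pan02 CAFs, Mmp2 was at 81.7 and 36.1 RPKM against 152 to 325 RPKM (log2 difference -1.98 ± 0.36 (SE), limma adjusted p = 0.003). Mmp9 was at 2.42 and 1.18 RPKM (log2 difference -2.27 ± 0.18 (SE), limma adjusted p = 5.9e-05), Mmp10 at 0.789 and 0.032 RPKM (log2 difference -2.17 ± 0.29 (SE), limma adjusted p = 7.6e-04) and Mmp12 at 0.052 and 0.031 RPKM (log2 difference -2.6 ± 0.12 (SE), limma adjusted p = 6.3e-06). All 4 proteases lay below every EO771 and LL2 CAF library. In Pan02 tumors, against the same 3 models, Mmp2 was 2.62 ± 0.37, adjusted p = 4.8e-05 and Mmp10 2.39 ± 0.44, adjusted p = 4.2e-04 (log2 fold changes, edgeR), the opposite direction. Mmp3 fell in Pan02 CAFs, to 28.8 and 12.7 RPKM (log2 difference -2.37 ± 0.52 (SE), limma adjusted p = 0.007), and its call was lost without Pan02 CAF library 2 (value -1.81, limma adjusted p = 0.073).

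The ADAMTS genes Adamts14 (-1.84 ± 0.11, adjusted p = 1.3e-05 by limma), Adamts15 (-1.66 ± 0.27, adjusted p = 0.0019) and Adamts10 (-1.52 ± 0.16, adjusted p = 2.2e-04) were lower in Pan02 CAFs as well. Their levels were 5.76 and 6.95 RPKM, 2.81 and 1.48 RPKM and 7.08 and 6.91 RPKM. Adamts14 and Adamts10 lay below all other CAF libraries, and Adamts15 overlapped MC38. The lower call for Adamts2 (-1.53, at 16.04 and 8.79 RPKM) was lost in 6 of the 8 fits that left out 1 library (EO771 CAF library 1, EO771 CAF library 2, LL2 CAF library 1, LL2 CAF library 2, Pan02 CAF library 1 and Pan02 CAF library 2), at values of -1.93 to -1.13. Mmp14, at 166 to 462 RPKM, Mmp23, Adamts5, Adamts12 and Timp1 did not pass the test for any difference among the 4 CAF groups.

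CAFs were then set beside the whole tumors of their model in TPM. The 2 tables were normalized separately and the libraries made separately, so no test was run. A gene was counted where every CAF library lay above, or below, every tumor, the means differed at least 2-fold and either mean was at least 1 TPM. In EO771, 17 of the 35 genes with such a level were higher in CAFs (background 10.9% of all genes) and 4 lower (background 12.4%). In LL2, 17 of 35 were higher (background 10.6%) and 2 lower (background 10.4%). In MC38, 7 of 33 were higher (background 15%) and 5 lower (background 19.4%), and 16 were higher without MC38 CAF library 2. Pan02 had 1 of 32 higher (background 7.61%) and 14 lower (background 14.7%), and the 1 became 0 without Pan02 CAF library 2 and 2 without Pan02 tumor 2. With 1 library left out, the share of all genes was not counted. The median log2 ratio of the genes was 0.6 (EO771), 0.89 (LL2), 0.59 (MC38) and -0.72 (Pan02), beside -0.33, -0.1, -0.16 and 0.09 over all genes.

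**Figure D4:**
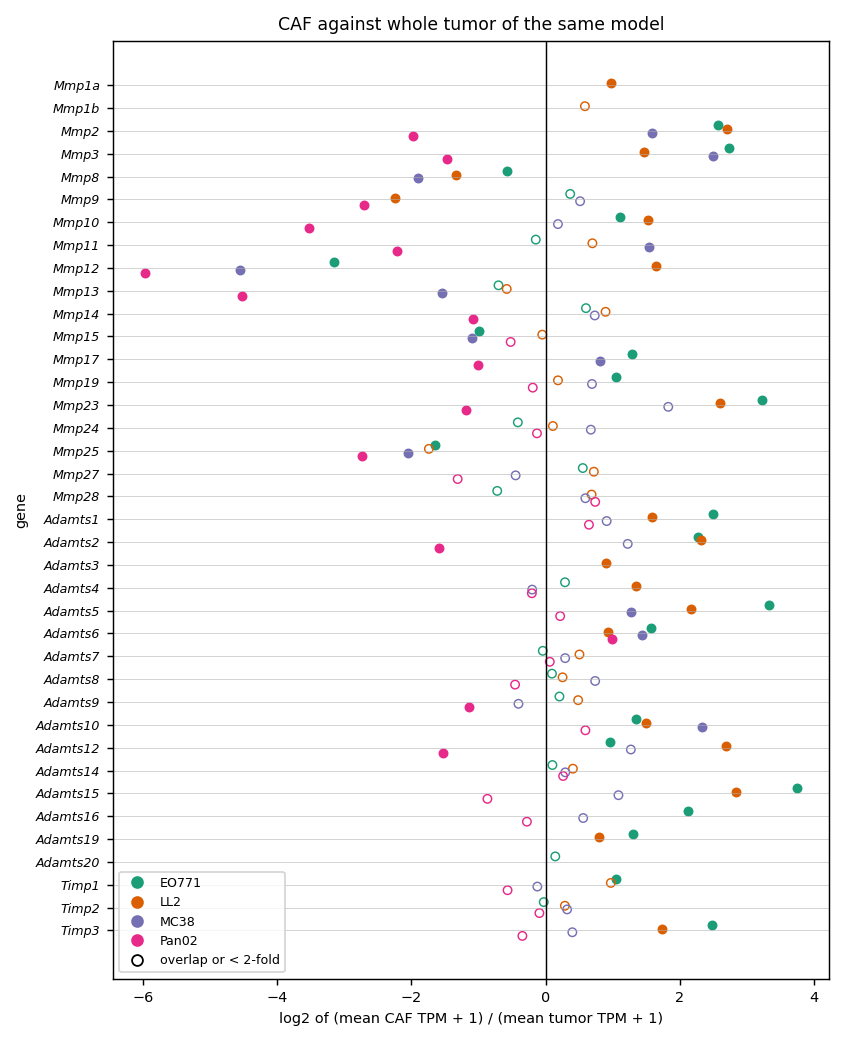
Log2 ratio of mean CAF to mean tumor TPM, with 1 TPM added to each, for the genes of the group in the 4 models. Most genes lie to the right of 0 in EO771 and LL2, while 14 genes were lower in all Pan02 CAF libraries than in all Pan02 tumors.

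The gelatinase Mmp2 was higher in the CAFs of 3 models and lower in those of Pan02. In EO771 it was at 60.7, 102 and 151 TPM in tumors and 647 and 595 TPM in CAFs, and in LL2 at 78.3, 72.7 and 74.6 and 561 and 433 TPM. In MC38 it was at 232, 121 and 266 TPM in tumors and 785 and 462 TPM in CAFs. In Pan02 the tumors held 298, 859.5 and 887 TPM and the CAFs 239.7 and 105 TPM. The log2 ratio, with 1 TPM added, was thus 2.56, 2.71 and 1.59 in the first 3 models and -1.98 in Pan02.

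Mmp3 and the procollagen protease Adamts2 also had their lowest ratio in Pan02. Mmp3 ratios were 2.73, 1.46 and 2.5 in EO771, LL2 and MC38 and -1.48 in Pan02, where tumors held 85.1, 186 and 242 TPM and CAFs 84.4 and 37.1 TPM. In LL2 the first tumor came nearest the CAFs, with tumors at 521, 85.9 and 103 TPM and CAFs at 621 and 687 TPM. Adamts2 was at 131, 100.04 and 105 TPM in Pan02 tumors and 47.04 and 25.6 TPM in Pan02 CAFs, against 22.04, 35.1 and 51.99 TPM and 195 and 163 TPM in EO771. Adamts12 and Mmp23 were also higher in EO771 or LL2 CAFs and lower in Pan02 CAFs. Mmp11 was higher in MC38 CAFs, at 394 and 518 TPM against 94.6, 226 and 149 TPM, and lower in Pan02 CAFs, at 63.1 and 52.8 TPM against 151, 319.9 and 347 TPM.

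The cluster genes Mmp10, Mmp12 and Mmp13 depended on the model. Mmp10 was higher in EO771 CAFs (102 and 67.6 TPM against 21.5, 47.7 and 47.1 TPM) and lower in Pan02 CAFs (2.31 and 0.0932 TPM against 36.4, 17.6 and 19.3 TPM). Mmp12 was lower in CAFs of EO771 (-3.15), MC38 (-4.56) and Pan02 (-5.97), and higher in LL2 CAFs (1.64). Macrophage markers were lower than in the tumors in the CAFs of all 4 models, and their part in these values was not tested. Mmp13 was at 136, 144 and 197 TPM in EO771 tumors and 137 and 57.6 TPM in EO771 CAFs, which overlapped, and at 209.5, 114 and 105 TPM in Pan02 tumors against 7.73 and 2.72 TPM in Pan02 CAFs. Mmp8, which neutrophils make, was lower in CAFs of EO771, LL2 and MC38, and Mmp25 in those of EO771, MC38 and Pan02.

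Mmp14 was the leading MMP in every CAF library but MC38 CAF library 2, where it was at 503 TPM and Mmp11 at 518 TPM. It was at 1211 to 1510.2 TPM in Pan02 tumors and 565 to 735 TPM in Pan02 CAFs, a log2 ratio of -1.09. In EO771, LL2 and MC38 its ratio was 0.6, 0.89 and 0.73, below the 2-fold minimum in all 3. Adamts6 was the 1 gene counted as higher in CAFs of all 4 models, with ratios of 1.57, 0.92, 1.44 and 0.98 after 1 TPM was added, while the 2-fold minimum was applied to the means without it. In Pan02 it was not counted as higher in RPKM or without Pan02 CAF library 2. Its transcript also differed between the tables, at 6961 bases in tumors and 6765 in CAFs. No gene was lower in CAFs of all 4.

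The TIMPs were counted as lower in CAFs of no model. Timp3 was higher in EO771 CAFs (149 and 148 TPM against 19.3, 32.7 and 25.5 TPM) and LL2 CAFs (34.9 and 28.2 TPM against 7.6, 8.75 and 9.91 TPM). Timp1 was higher in EO771 CAFs (629 and 811 TPM against 335, 342 and 368 TPM). Timp2 lay within 0.32 of no change on the log2 scale in all 4 models, at -0.03, 0.29, 0.32 and -0.09. Timp4 did not reach 1 TPM in any library.

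Sums over each family show the balance of proteases and inhibitors. MMP transcripts summed to 401 to 543 TPM in B16 tumors, 966 to 1337 in EO771, 859.8 to 1663 in LL2, 856 to 1088 in MC38 and 2588 to 3239 TPM in Pan02. Pan02 lay above and B16 below all other models. In CAFs the order of Pan02 turned, with 963 to 1327 TPM against 1684 to 2566 in MC38, 2108 to 2331 in EO771 and 2717 to 2764 TPM in LL2. TIMP sums were 239 to 334 TPM in B16 tumors, 1269 to 2122 TPM in Pan02 tumors and 1281 to 1586 TPM in Pan02 CAFs.

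The ratio of MMP to TIMP transcripts was 0.752 to 0.837 in Pan02 CAFs, the only group below 1. It was 1.42 to 1.75 in EO771 CAFs, 2.53 to 2.93 in LL2 CAFs and 2.48 to 3.11 in MC38 CAFs, and the 15 tumors ranged from 1.14 to 2.52. These are ratios of transcripts, not of enzyme activity. ADAMTS sums were smaller, 151 to 227 TPM in EO771 tumors and 297 to 459 TPM in Pan02 tumors, and 559 to 632 TPM in LL2 CAFs.

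**Figure D5:**
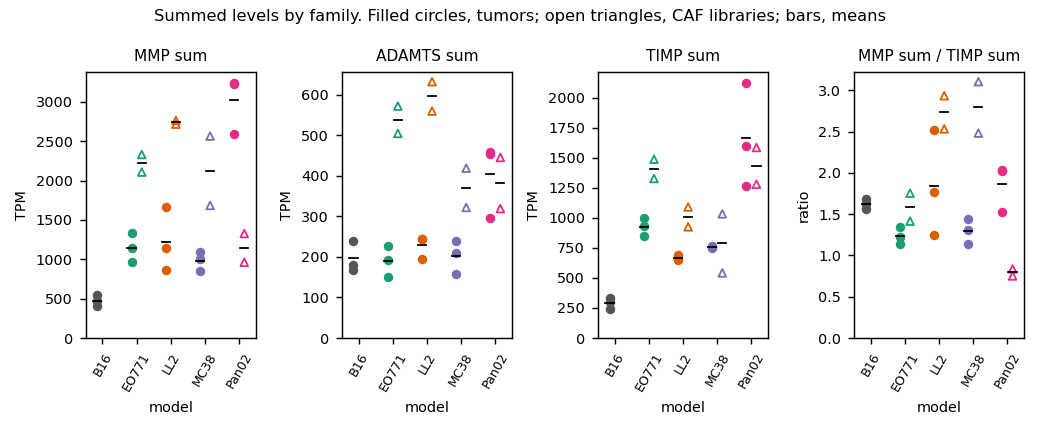
Summed TPM of the MMP, ADAMTS and TIMP genes and the ratio of MMP to TIMP transcripts by model, with filled circles for tumors, open triangles for CAF libraries and bars for means. Pan02 has the highest MMP sums among tumors and the lowest among CAFs, where the MMP to TIMP ratio lies between 0.752 and 0.837.

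The make-up of the MMP sum also differed. Mmp14 held 83.8% of MMP transcripts in B16 tumors (mean of 3) and 43.5% to 53.1% in the other tumor models. In CAFs it held 32.8% in MC38 and 57.04% in Pan02. Timp2 held 69.6% of TIMP transcripts in Pan02 tumors and 75.4% in Pan02 CAFs, whereas Timp1 held 63.97% in MC38 tumors and 54.03% in MC38 CAFs. Adamts1 held 47.8% of ADAMTS transcripts in B16 tumors.

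Other genes of extracellular proteolysis and its control were taken from a list of 42, which includes the plasminogen system, cathepsins, ADAM proteases and proprotein convertases. Of the 41 tested in tumors, 19 were called higher in Pan02 (46.3%, background 18.8%), and 5 higher (12.2%, background 13.1%) and 26 lower in B16 (63.4%, background 19.6%). The Pan02 rises were led by A2m, a broad protease trap (log2 fold change 4.56 ± 0.27 (SE), edgeR adjusted p = 2.0e-08), and Pcsk6, a proprotein convertase (log2 fold change 4.27 ± 0.32 (SE), edgeR adjusted p = 1.4e-07). In B16, Pcolce2, an enhancer of procollagen processing, and Adamtsl3, an ADAMTS-like protein without a protease domain, fell most (-4.75 and -4.3). EO771 had 9 higher (22%, background 9.71%) and 7 lower (17.1%, background 13.7%), the latter including Pcsk6 (-2.6). LL2 had 7 higher (17.1%, background 8.51%), with Adamtsl3 (log2 fold change 5.6 ± 0.26 (SE), edgeR adjusted p = 5.0e-09) in front, and 5 lower (12.2%, background 8.29%), and MC38 had 1 higher (2.44%, background 11.2%) and 3 lower (7.32%, background 8.24%).

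In CAFs, 39 of the 42 were tested. EO771 CAFs had 10 higher (25.6%, background 8.05%) and 1 lower (2.56%, background 7.06%), the former including the macrophage cathepsin Ctss (log2 difference 3.6 ± 0.14 (SE), limma adjusted p = 5.6e-06). The higher Ctss went with the highest macrophage marker sum among the CAFs, whose part was not tested. LL2 CAFs had 4 higher (10.3%, background 3.89%) and 1 lower (2.56%, background 5.13%), among them Adamtsl3 (2.89) and the urokinase gene Plau (2.15). Both were also higher in LL2 tumors, by 5.6 and 2.12 against the other 4 models. MC38 CAFs had 3 higher (7.69%, background 10.9%) and 8 lower (background 9.87%), where Plau fell most (log2 difference -2.48 ± 0.5 (SE), limma adjusted p = 0.0038). Pan02 CAFs had 2 higher (5.13%, background 9.73%), led by Pcsk6 (2.04), and 9 lower (23.1%, background 8.41%), among them Serpine2 (-2.36).

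Matrix substrates, a list of 20 collagens, proteoglycans and glycoproteins, had 18 genes tested in tumors. In Pan02 12 were higher (66.7%, background 18.8%) and 1 lower (5.56%, background 7.93%), and in B16 16 were lower (88.9%, background 19.6%). EO771 had 5 higher (27.8%, background 9.71%) and 2 lower (11.1%, background 13.7%), LL2 6 (33.3%, background 8.51%) and 1 (5.56%, background 8.29%), and in MC38 4 were higher (22.2%, background 11.2%). In CAFs, of 16 tested, the counts higher and lower were 3 (18.8%, background 8.05%) and 1 (6.25%, background 7.06%) for EO771, 3 (18.8%, background 3.89%) and 2 (12.5%, background 5.13%) for LL2, 1 (6.25%, background 10.9%) and 3 (18.8%, background 9.87%) for MC38, and 3 (18.8%, background 9.73%) and 4 (25%, background 8.41%) for Pan02.

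The 7 AP-1 subunits, whose dimers bind the motif printed for the cluster genes, were tested in both tables. Fosl1 was called higher in EO771 (log2 fold change 2.5 ± 0.19 (SE), edgeR adjusted p = 2.5e-07), LL2 (log2 fold change 3.01 ± 0.19 (SE), edgeR adjusted p = 6.6e-08) and MC38 tumors (log2 fold change 1.06 ± 0.21 (SE), edgeR adjusted p = 7.9e-04), and 5 of the 7 (background 18.8%) were higher in Pan02 tumors, led by Fosb (3.42) and Fos (2.82). In B16 tumors 6 of the 7 (background 19.6%) were lower. In CAFs, Fosl1 was higher in EO771 (log2 difference 1.3 ± 0.16 (SE), limma adjusted p = 6.3e-04) and lower in MC38 (log2 difference -1.55 ± 0.16 (SE), limma adjusted p = 2.0e-04), where Fosb fell as well (-1.83). Pan02 CAFs had higher Fosl2 (2.03) and Fos (1.46), while Mmp3, Mmp10 and Mmp12 were lower in the same libraries. In LL2 CAFs, where Mmp12 and Mmp3 were highest, Fosl1 was not called (log2 difference 0.68 ± 0.16 (SE), limma adjusted p = 0.017). Whether any subunit acts on these genes was not tested.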

How the data were processed

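RNA-seq of 15 whole tumors and 8 libraries of sorted FAP+ cells was analysed. Polyadenylated RNA was prepared with NEBNext kits without strand information. Per the submitters' processing notes, the authors used STAR 2.5.0c, HOMER and DESeq2 with the mm10 build. The tumor table, as deposited by the authors, holds expected counts per transcript in steps of 0.5 without normalization, and these were rounded to whole numbers. The CAF table holds RPKM computed by the authors, from which read numbers were recovered with transcript lengths (100% of values in half-read steps, within 0.05 reads). Another 5 per-sample columns were not used here. DNA sequences came from RefSeq.

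The gene group, the lists and the tests were chosen with earlier results of these data known. Tumors were tested with edgeR 4.0.16 (TMM, filterByExpr, quasi-likelihood F tests, 15722 genes) and CAFs with limma 3.58.1 (trend, log2(RPKM + 1), 13598 genes that reached 1 RPKM in 2 or more libraries) in R 4.3.3, with Benjamini-Hochberg adjustment over all genes tested. CAF differences are on the log2(RPKM + 1) scale and understate changes of low genes. Tumor CPM were scaled by the TMM factors of this fit. Across the tables TPM over 1 transcript per symbol was compared without a test, and 13 of the 46 genes had a different transcript in each table. On simulated data edgeR recovered 200 of 200 genes changed 4-fold with 2 false calls for MC38 tumors, and limma 199 of 200 with 8 false calls for MC38 CAFs. The simulation gave all genes 1 common spread and changed only these 200, none of them among the least abundant. It therefore does not show how many of the calls reported here are right. The 3 tumors of a model were separate tumors and the 2 CAF libraries separate sorts, and p-values measure the spread between these samples. The labels do not say which mouse each came from, so the samples of a model need not be separate mice. Depth limits genes under about 1 CPM most.

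Named genes were the TIMPs, Mmp10, Mmp11 and Mmp12, genes called in any contrast whose mean reached 10 CPM in 1 of the tumor models or 5 RPKM in 1 of the CAF models, and in each contrast the 2 called genes with the largest rise and the 2 with the largest fall, while the remaining genes are given mainly by their range. From the other lists, called genes with large changes in a contrast were named, and 1 item is not reported here. Alternatives were DESeq2 1.42.0, scaling by total counts, no filter, the longest transcript, a pseudocount of 0.1, edgeR on the recovered reads, other minimum differences and leaving out each library.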

Additional observations from a re-analysis of the deposited data

Results flagged for a closer look

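Of the genes set side by side in CAFs and whole tumors, 9 were picked because they were counted as higher in CAFs of 1 model and lower in those of another. For all 9, Pan02 was a model with lower CAFs. Other genes, among them Adamts5, Adamts10 and Timp3, were counted as higher in CAFs of some models and lower in those of none. Over all genes with a level, 14.7% were lower in Pan02 CAFs, and the share with both directions was not counted. The gap is the log2 ratio of CAF to tumor TPM, with 1 TPM added, in the first model minus that in Pan02, and the difference was not tested because the tables were normalized separately. The gap was largest for Mmp12, at 7.60 between LL2 (1.64) and Pan02 (-5.97). It was 5.06 for Mmp10 (LL2 1.53 and Pan02 -3.53) and 4.69 for Mmp2 (LL2 2.71 and Pan02 -1.98). Mmp23 had a gap of 4.42 (EO771 3.22 and Pan02 -1.19), Adamts12 of 4.22 (LL2 2.68 and Pan02 -1.54) and Mmp3 of 4.21 (EO771 2.73 and Pan02 -1.48). Adamts2 had a gap of 3.91 (LL2 2.32 and Pan02 -1.60), Mmp11 of 3.75 (MC38 1.54 and Pan02 -2.21) and Mmp17 of 2.30 (EO771 1.28 and Pan02 -1.01). Beside these values, fibroblast markers in Pan02 CAFs were below those of Pan02 tumors. Mean epithelial marker sums were 2998 TPM in Pan02 CAFs and 3959 TPM in Pan02 tumors, 1232 and 1618 TPM in EO771, and 559 and 872 TPM in LL2. The part of these markers in the gaps was not tested.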

How the results depend on the processing

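Counts of tested genes of the group kept within 1.5 times of the reported ones under most alternatives. Where no background stands beside a count in this section, the share of all genes was not counted for that alternative. Without a minimum change, MC38 tumors had 20 calls (13 reported) and the CAFs of LL2 and MC38 had 12 and 14 (7 and 8 reported). By edgeR on the recovered reads, which tested 15519 genes (40 of the 46 in place of 30) and found 12037 to differ, the calls came to 19 in EO771 CAFs (10 reported, background 23.8%) and 13 in LL2 CAFs (background 13.7%). With 1 library left out, calls ranged from 2 to 8 in LL2 CAFs and from 7 to 17 in MC38 CAFs, and genes higher in CAFs from 7 to 16 in MC38 (7 reported) and from 0 to 2 in Pan02 (1 reported). A minimum of 5 TPM left 2 genes lower in EO771 CAFs (4 reported), 1 in LL2 (2 reported) and 3 in MC38 (5 reported). Without the 2-fold minimum, 12 genes were higher in MC38 CAFs and 3 in Pan02, and in RPKM 0 were higher in Pan02. Mmp12 in Pan02 tumors ranged from -0.48 to 1.72 with 1 tumor left out. Scaling by total counts alone shifted the median of all genes by 0.14 in MC38 and by -0.11 in Pan02 on the log2 scale, and the cause of the other changes was not tested. Chosen after seeing the data, a fit without both Pan02 CAF libraries gave 8 calls in EO771, 5 in LL2 and 8 in MC38. Of 100 tumor and 44 CAF values of single genes, 27 and 18 lost their call in some alternative, most often when 1 library was left out, and tumor genes at low levels were among them (Adamts8, Adamts16, Adamts19, Adamts20, Mmp8 and Mmp16).

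Same-numbered tumors of different models did not deviate together (correlations from -0.167 to 0.262, median 0.029, over 30 pairs), so the numbers are not taken to pair them. With the replicate block the calls were 23 (B16), 13 (EO771), 17 (LL2), 13 (MC38) and 25 (Pan02), each within 1.5 times of the count without it. The CAF columns carry no replicate number, so this block was not run for them.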
